A study of Mus musculus with 157 samples.

Results

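The genes of ribosome biogenesis and the nucleolus were selected by gene name, from a list of 41 symbols, and all 41 were present among the 19600 genes of the count table. They comprised 3 proteins of the box C/D small nucleolar ribonucleoproteins (snoRNPs), 5 genes of the box H/ACA snoRNPs and their chaperone, 3 subunits of RNA polymerase I, 3 nucleolar GTPase, helicase and RNA-binding proteins, 16 factors of small subunit assembly and 11 factors of large subunit assembly. No measured value was a criterion of the selection, but the list was chosen with earlier results of these data known. All 41 passed the filter on low counts when the fractions of a gradient were summed, and 40 passed it in the monosomes, where Gnl3 did not.

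Ribosomes are built in the nucleolus. RNA polymerase I transcribes the precursor of the ribosomal RNAs, box C/D and box H/ACA snoRNPs guide its methylation and pseudouridylation, and a large set of assembly factors folds and cleaves it while ribosomal proteins are added to the small and the large subunit. In a resting B lymphocyte this machinery is present at a low level, and a mitogen such as lipopolysaccharide (LPS) raises it as the cell grows and prepares to divide.

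B cells purified from spleens of C57BL/6Babr mice with an isolation kit were activated with LPS at 10 µg/ml, and cytoplasmic extracts were sedimented through sucrose gradients so that mRNAs separated by the number of ribosomes they carried. The LPS group received LPS for 48 h and no other agent. The LPS+ET group also received etoposide, a topoisomerase II inhibitor that causes DNA double-strand breaks, at 20 µM for 4 h. The LPS+ET+KU group received KU55933, an inhibitor of the ATM kinase that signals such breaks, at 10 µM, added after 47 h of LPS and 1 h before etoposide, which was given at the same dose and for the same 4 h. Every group therefore carried LPS, every extract was made after a brief treatment with cycloheximide, and no group had KU55933 without etoposide or was left without LPS. The study's methods describe young adult mice, and the labels do not state their age or whether the LPS cultures were harvested at the start or at the end of the etoposide period. Fractions 4 to 7 held monosomes, 8 to 10 light polysomes and 11 to 16 heavy polysomes, and each fraction was read as a 3′ end RNA sequencing library, in which 1 count stands for 1 transcript end whatever the length of the transcript. There were 4 gradients per treatment, 1 for each of the tokens LUL15 to LUL18 in the column names, and 12 gradients with 156 libraries in all. Each token is called a library pool here, but the labels do not say what it stands for. A pool cannot be told apart from a biological replicate.

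Library totals ranged from 14724 to 4170688 counts with a median of 811932, and the sum over a gradient from 6404957 in LPS+ET of pool LUL16 to 21449781. The 41 genes together had a median of 6452 counts per gene over all libraries, from 301 for Gnl3 upward, and 10 of them had under 3000. The summed CPM (counts scaled to a common library total) of 6 B cell markers was 2059 to 2716 in LPS, 1565 to 2025 in LPS+ET and 1788 to 2469 in LPS+ET+KU. The 5 T cell markers summed to at most 4.48 CPM in any gradient, and the 2 red cell markers to at most 1.40 CPM. The 7 myeloid markers summed to 33.4 to 86.8 CPM in LPS, 47.2 to 166.6 in LPS+ET and 32.9 to 125 in LPS+ET+KU. B cell markers were thus lower in every LPS+ET gradient than in every LPS gradient, and their part in the results below was not tested. In such bulk extracts, fewer cells of a type and less RNA per cell cannot be told apart. For the 41 genes, CPM was also scaled by a TMM normalization factor, which the marker values were not. Because equal concentrations of RNA were taken from each fraction, CPM is relative to the other transcripts sequenced and is not an amount per cell. A gene's share of a class of libraries below is meant in this relative sense.

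The gene whose change after etoposide was best resolved was Wdr43, which encodes a component of the early complex that binds the ribosomal RNA precursor while it is transcribed. It is shown here by its promoter, as are Grwd1 and Rrp1b. Grwd1 encodes a chaperone of a large subunit protein and had the largest called change of LPS+ET+KU against LPS. Rrp1b was the other gene called lower after etoposide. The sequences are from RefSeq on build GRCm38.p6, run from 250 bases before to 50 bases after the annotated start on the strand of the gene, and capitals mark the letters CACGTG, the E-box bound by MYC and related factors. Wdr43 lies at chr17:71615965-71616264 on the plus strand, Grwd1 at chr7:45830740-45831039 on the minus strand and Rrp1b at chr17:32035912-32036211 on the plus strand.
Wdr43: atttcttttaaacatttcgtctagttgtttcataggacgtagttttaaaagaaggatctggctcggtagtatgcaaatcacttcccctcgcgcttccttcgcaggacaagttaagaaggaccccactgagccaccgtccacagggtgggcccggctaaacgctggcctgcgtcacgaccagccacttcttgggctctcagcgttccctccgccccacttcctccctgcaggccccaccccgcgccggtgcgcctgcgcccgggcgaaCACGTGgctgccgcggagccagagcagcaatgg
Grwd1: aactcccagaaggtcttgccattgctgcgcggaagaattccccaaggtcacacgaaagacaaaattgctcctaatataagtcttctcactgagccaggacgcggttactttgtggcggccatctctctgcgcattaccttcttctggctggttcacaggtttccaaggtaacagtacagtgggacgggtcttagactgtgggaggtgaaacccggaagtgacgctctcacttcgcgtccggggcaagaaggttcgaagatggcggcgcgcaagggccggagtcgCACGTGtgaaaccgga
Rrp1b: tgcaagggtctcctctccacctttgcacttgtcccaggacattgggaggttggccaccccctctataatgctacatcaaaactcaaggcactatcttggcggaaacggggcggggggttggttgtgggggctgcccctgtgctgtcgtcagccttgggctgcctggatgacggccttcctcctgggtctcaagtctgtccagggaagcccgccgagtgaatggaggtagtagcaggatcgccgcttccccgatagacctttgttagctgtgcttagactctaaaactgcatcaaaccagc
The E-box began at base 18 of the Wdr43 transcript and at base 35 of the Grwd1 transcript, and these letters were not in the Rrp1b window. A promoter was at hand for 37 of the 41 genes, all but Fbl, Rrp12, Rrs1 and Bop1. CACGTG, which reads the same on both strands, was in 9 of the 37 (24.3%), namely Grwd1, Imp4, Ltv1, Nop2, Pes1, Tsr1, Utp18, Utp20 and Wdr43. It was in a promoter of 17 of 89 other ribosome biogenesis genes (19.1%) and of 1038 of 8736 tested protein coding genes (11.9%). These shares count genes with the motif in any of their promoters. Counted by single promoters, a different unit, it was in 2349 of all 32851 of the same length (7.15%). A match in letters is a description and not a binding site. The median log2 fold change of LPS+ET against LPS was -0.41 in the 9 genes with the motif and -0.35 in the 28 without it, and that of LPS+ET+KU against LPS was -0.61 and -0.64.

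The first comparison asked how the ribosome-bound mRNAs of these genes changed when DNA breaks were induced in activated B cells. In the sum of all ribosome fractions, 34 of the 41 genes had a lower mean in LPS+ET than in LPS. Only Wdr43 and Rrp1b fell by the test, and none rose. Counts were summed as deposited, so a fraction with a larger library total weighed more. The 34 genes were 82.9% of the group, against 48.4% of all 12755 genes tested, and the median log2 fold change was -0.39, against 0.03 over all genes. Calls were made at an adjusted p under 0.01 by edgeR's quasi-likelihood test with Benjamini-Hochberg adjustment over the whole table. This rule called 4.81% of all genes lower and 7.88% higher, beside 2 of 41 lower (10 of 41 against 12.8% with the library pool as a block, given below). At an unadjusted p under 0.05 there were 12 of the 41 (29.3%), against 34.4% of all genes.

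Wdr43 stood at 241.2, 265.7, 239.7 and 265.0 CPM in the LPS gradients of LUL15, LUL16, LUL17 and LUL18. It stood at 137.1, 124.7, 118.0 and 118.4 CPM in LPS+ET and at 117.8, 94.6, 132.2 and 123.5 CPM in LPS+ET+KU. Every gradient with etoposide lay far below every LPS gradient, and the etoposide groups overlapped. The log2 fold change of LPS+ET against LPS was -1.02 ± 0.15 (SE; edgeR adjusted p = 0.000299), 2.03-fold lower. Of its counts, 73.3% came from a 3′ end in an untranslated exon 1080 bases from the annotated end of the gene.

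Rrp1b encodes a nucleolar factor of large subunit assembly. It had 31.2, 29.6, 24.2 and 24.6 CPM in LPS, 18.6, 19.6, 14.0 and 15.6 CPM in LPS+ET and 12.3, 12.8, 12.1 and 10.3 CPM in LPS+ET+KU. The 3 groups formed steps without overlap. The log2 fold change of LPS+ET against LPS was -0.70 ± 0.17 (edgeR adjusted p = 0.00799), 1.62-fold lower. Of 12 fits that left out 1 gradient each, the call was kept in those without LPS+ET or LPS+ET+KU of pool LUL16 and lost in the other 10, where the edgeR adjusted p reached 0.0305.

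Heatr1 and Grwd1 had the next smallest p and were not called. Heatr1, a very long protein of the same early complex as Wdr43, had 306.1, 221.0, 285.0 and 248.2 CPM in LPS and 209.6, 154.2, 118.3 and 138.1 CPM in LPS+ET, or on the log2 scale -0.77 ± 0.22 (edgeR adjusted p = 0.0206). Its reads ended 3 bases from an annotated transcript end, outside the annotated exons of its protein coding transcripts. Grwd1 had 27.7, 38.2, 20.2 and 21.1 CPM in LPS and 17.6, 11.3, 11.9 and 17.8 CPM in LPS+ET, or on the log2 scale -0.87 ± 0.25 (edgeR adjusted p = 0.0225). In both genes the 4 LPS+ET gradients lay below the 4 LPS gradients.

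**Figure D1:**
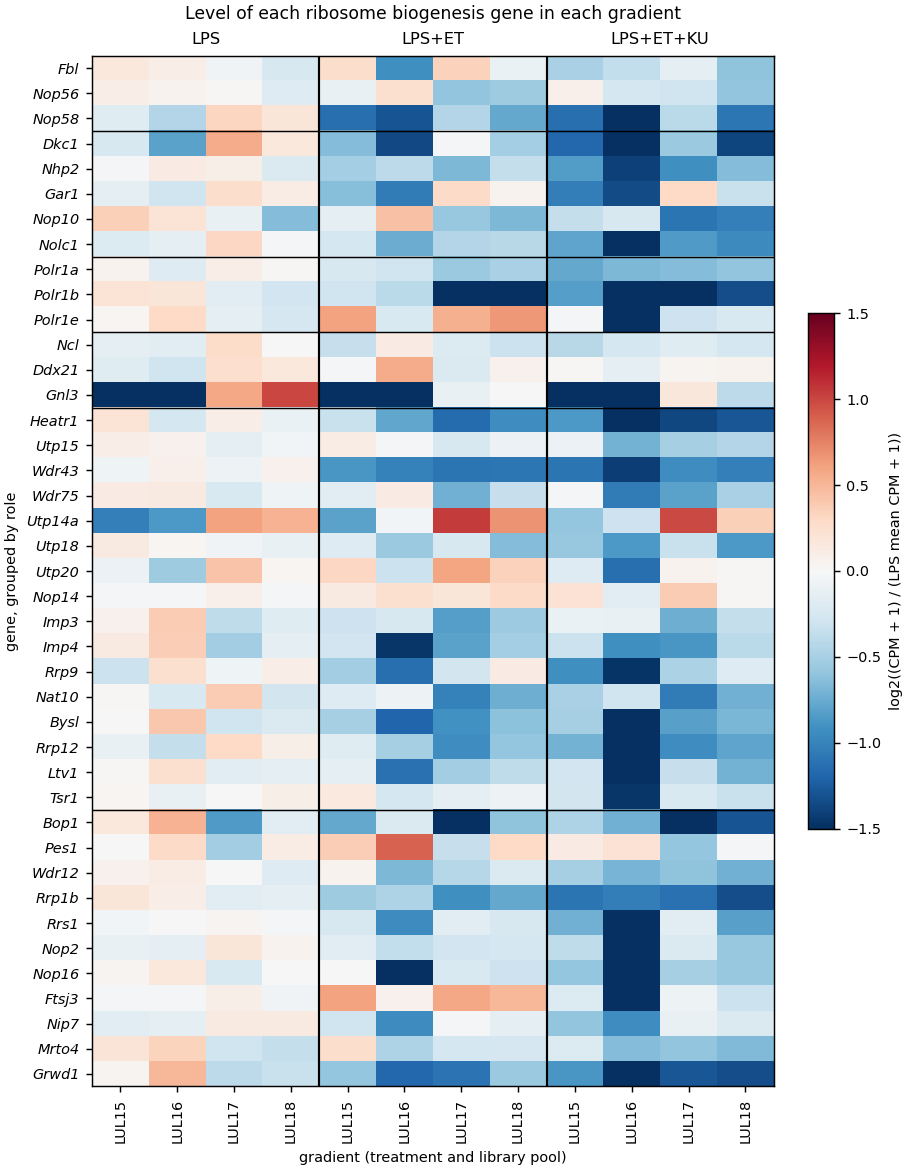
CPM of ribosome biogenesis genes in each of the 12 gradients, as log2 of (CPM + 1) relative to the mean of the LPS gradients, with genes in rows by role, gradients in columns by treatment and colours saturating at the ends of the scale. Wdr43, Rrp1b and Heatr1 are below the LPS mean in all 8 gradients with etoposide, whereas Gnl3 and Utp14a differ mainly between pools.

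The snoRNP proteins of the box C/D class had a median log2 fold change of -0.21 over 3 genes, all below 0: Fbl, the methyltransferase itself, was at -0.02 and its scaffold partner Nop56 at -0.21. Nop58, the other scaffold protein, fell from 81.1 ± 19.2 CPM (SD, n = 4) to 43.9 ± 12.1 CPM once the library pool was taken as a block (log2 fold change -0.90, edgeR adjusted p = 0.000285) and was not called without the block (-0.88). The 5 box H/ACA genes were all below 0 with a median of -0.45: Dkc1, the pseudouridine synthase, was at -0.56 and its small partner Nop10 at -0.17. Dkc1 ranged widely within LPS, from 90.3 CPM in LUL16 to 232.6 CPM in LUL17, and its LPS+ET values of 61.5 to 155.8 CPM overlapped that range. None of the 8 snoRNP genes was called without the block.

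Of the RNA polymerase I subunits, Polr1a, the largest subunit, was at -0.41 ± 0.15 and Polr1b, the next largest, at -0.89 ± 0.36, while Polr1e, an accessory subunit, was at 0.44 ± 0.30; none was called. Polr1a stood at 14.6 to 18.1 CPM in LPS and 11.2 to 14.1 CPM in LPS+ET. Its groups did not overlap, and neither did those of Polr1b, at 30.9 to 43.8 CPM and 10.4 to 30.7 CPM. Nucleolin (Ncl), an abundant RNA-binding protein of the nucleolus, was at -0.17 ± 0.17 and the RNA helicase Ddx21 at 0.13 ± 0.19. The GTPase nucleostemin (Gnl3) was at -0.98 ± 1.45, with 0 to 0.101 CPM in all gradients of LUL15 and LUL16 and 2.23 to 7.45 CPM in those of LUL17 and LUL18. Gnl3 and Utp14a were the 2 genes whose values separated the pools, Utp14a at 5.54 to 11.9 CPM in LUL15 and LUL16 and 15.9 to 26.5 CPM in LUL17 and LUL18, and no treatment change can be read from Gnl3. The counted end of Gnl3 lay in coding sequence.

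Among the 16 factors of small subunit assembly, 13 were below 0, with a median of -0.44. Besides Wdr43 and Heatr1 these included Bysl, a factor of late maturation, which stood at 32.95 to 54.2 CPM in LPS and 17.2 to 28.4 CPM in LPS+ET and was not called (-0.80, edgeR adjusted p = 0.0303). Utp20, the longest of the group, was at 0.30 and not called. Among the 11 factors of large subunit assembly, 9 were below 0, with a median of -0.32. Bop1 and Pes1, partners with Wdr12 in 1 complex, lay on opposite sides of 0, at -0.83 ± 0.41 and 0.37 ± 0.26, neither called. Over the whole group the groups of 4 gradients did not overlap in 14 genes (34.1%), 13 of them lower and Nop14 higher, against 27.5% of all genes tested.

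Gradients of the same pool deviated together, and with the pool entered as a block the test called 10 of the 41 genes lower after etoposide and none higher, against 12.8% of all genes lower in that fit. The 10 were Nop58, Dkc1, Polr1b, Heatr1, Wdr43, Imp3, Bysl, Bop1, Rrp1b and Grwd1, with log2 fold changes from -1.02 for Wdr43 to -0.46 for Imp3, a component of the U3 snoRNP-associated machinery. DESeq2 without the block called 4 lower, Heatr1, Wdr43, Rrp1b and Grwd1, against 6.47% of all genes. The direction of these genes was the same in all 3 fits, and the number called was not.

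Adding KU55933 before etoposide asked whether the changes depended on ATM. No gene of the group was called between LPS+ET+KU and LPS+ET by edgeR or by DESeq2, against 0.455% and 3.15% of all genes in either direction, and 7 were at an unadjusted p under 0.05 by edgeR, against 15.9% of all genes. All the same, 39 of the 41 had a lower mean in LPS+ET+KU (95.1%, against 46.7% of all genes), with a median log2 fold change of -0.32, against 0.04 over all genes. Imp3 and Imp4 were the 2 genes with a higher mean, at 0.16 and 0.10. The sizes rested partly on 1 gradient, LPS+ET+KU of LUL16, which was the lowest of its group for many genes; without it 31 of 41 were below 0 with a median of -0.20, and with equal weight to each fraction 29 of 41 with a median of -0.14.

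The smallest p belonged to Ftsj3, a methyltransferase of large subunit assembly. It had 41.3, 40.9, 44.3 and 40.3 CPM in LPS, 64.1, 43.7, 62.9 and 59.1 CPM in LPS+ET and 36.02, 13.4, 39.6 and 33.1 CPM in LPS+ET+KU. The LPS+ET+KU values lay below both other groups. Its log2 fold change against LPS+ET was -0.91 ± 0.27 (edgeR adjusted p = 0.0933). It was called with the pool block (-0.97, edgeR adjusted p = 0.00612), as was Dkc1 (-0.73, edgeR adjusted p = 0.00369), 2 of 41 against 3.59% of all genes called lower in that fit. Next by p, and not called in either fit, were Rrp1b (-0.51), Polr1e (-0.88) and Nhp2 (-0.45), the last an RNA-binding partner of Dkc1.

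By role, the medians of this comparison were -0.18 for box C/D, -0.46 for box H/ACA, -0.60 for RNA polymerase I, -0.10 for Ncl, Ddx21 and Gnl3, -0.21 for small subunit assembly and -0.39 for large subunit assembly. The genes named for their role ranged from -0.68 for Dkc1 to -0.04 for Nop56: Fbl was at -0.43, Nop10 at -0.46, Polr1a at -0.31, Polr1b at -0.60, Ncl at -0.10, Gnl3 at -0.06, Heatr1 at -0.50, Utp20 at -0.56, Bop1 at -0.24 and Pes1 at -0.40. Wdr43 was at -0.09 ± 0.15. The groups did not overlap in 4 genes, Nolc1, Polr1a, Rrp1b and Ftsj3, all lower in LPS+ET+KU (9.76% of the 41, against 8.57% of all genes).

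Setting LPS+ET+KU against LPS, which shares its samples with both comparisons above, gave the most calls. Grwd1, Heatr1, Rrp1b, Wdr43, Nolc1, Nhp2 and Polr1a fell, 7 of the 41, and none rose; of all genes, 4.42% were called lower and 6.25% higher. There were 39 of 41 genes below 0, with a median of -0.65 (all genes 0.09), and 25 (61%) at an unadjusted p under 0.05, against 35.9% of all genes. The median was -0.38 with equal weight to each fraction.

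Grwd1 fell furthest, to 14.2, 8.58, 10.5 and 10.1 CPM in the 4 LPS+ET+KU gradients, on the log2 scale -1.31 ± 0.25 (edgeR adjusted p = 0.00267), 2.49-fold lower than LPS. Heatr1, at 145.6, 84.0, 102.0 and 108.3 CPM, fell 2.41-fold (-1.27 ± 0.22, edgeR adjusted p = 0.00146), and Rrp1b fell 2.31-fold (-1.21 ± 0.17, edgeR adjusted p = 0.000312). For Wdr43 the fall was 2.16-fold (-1.11 ± 0.15, edgeR adjusted p = 0.000264), and its difference between LPS+ET+KU and LPS+ET was within its SE. All 4 genes encode assembly factors, Heatr1 and Wdr43 of the small subunit and Grwd1 and Rrp1b of the large.

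Nolc1, a nucleolar phosphoprotein that chaperones snoRNPs, had 1066, 1111, 1529 and 1208 CPM in LPS, 1021, 736, 908 and 923 CPM in LPS+ET and 712, 310.9, 679 and 631 CPM in LPS+ET+KU. The 3 groups stepped down without overlap, and the log2 fold change against LPS was -1.07 ± 0.24 (edgeR adjusted p = 0.00743). Nhp2 had 151.7, 167.6, 163.1 and 132.5 CPM in LPS, 107.9, 117.1, 96.2 and 120.0 CPM in LPS+ET and 85.6, 57.8, 80.9 and 97.9 CPM in LPS+ET+KU (-0.93 ± 0.18, edgeR adjusted p = 0.0026). Polr1a had 9.46 to 10.8 CPM in LPS+ET+KU, below all other gradients, a 1.65-fold fall (-0.72 ± 0.15, edgeR adjusted p = 0.00472). With equal weight to each fraction it was at -0.09 (limma adjusted p = 0.804), and without the filter on low counts at -0.74 (edgeR adjusted p = 0.0128), neither called. Polr1b, at -1.49 ± 0.36, had the largest change of all but missed the threshold (edgeR adjusted p = 0.0105). Also not called were Dkc1 (-1.24), Bop1 (-1.07), Gnl3 (-1.04), Nop10 (-0.63), Fbl (-0.45), Ncl (-0.28), Utp20 (-0.26), Nop56 (-0.25) and Pes1 (-0.04).

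Groups of LPS+ET+KU and LPS did not overlap in 20 genes, all lower (48.8%, against 26.4% of all genes). With the pool as a block 18 of 41 were called lower, against 13.3% of all genes lower in that fit; Nop58, Dkc1, Nop10, Polr1b, Utp18, Rrp9, Bysl, Rrp12, Bop1, Wdr12 and Rrs1 joined the 7. DESeq2 called 14 lower, against 7.75% of all genes. The calls numbered 4 with equal weight to each fraction, against 1.83% of all genes lower. They numbered 4 without LPS+ET+KU of LUL18 and 9 without LPS+ET of LUL16, and the share of all genes was not taken in those fits. The call of Nolc1 was lost in 10 of 12 fits that left out 1 gradient and that of Polr1a in 6 of 12, whereas Wdr43, Rrp1b, Heatr1 and Nhp2 kept theirs in all 12.

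**Figure D2:**
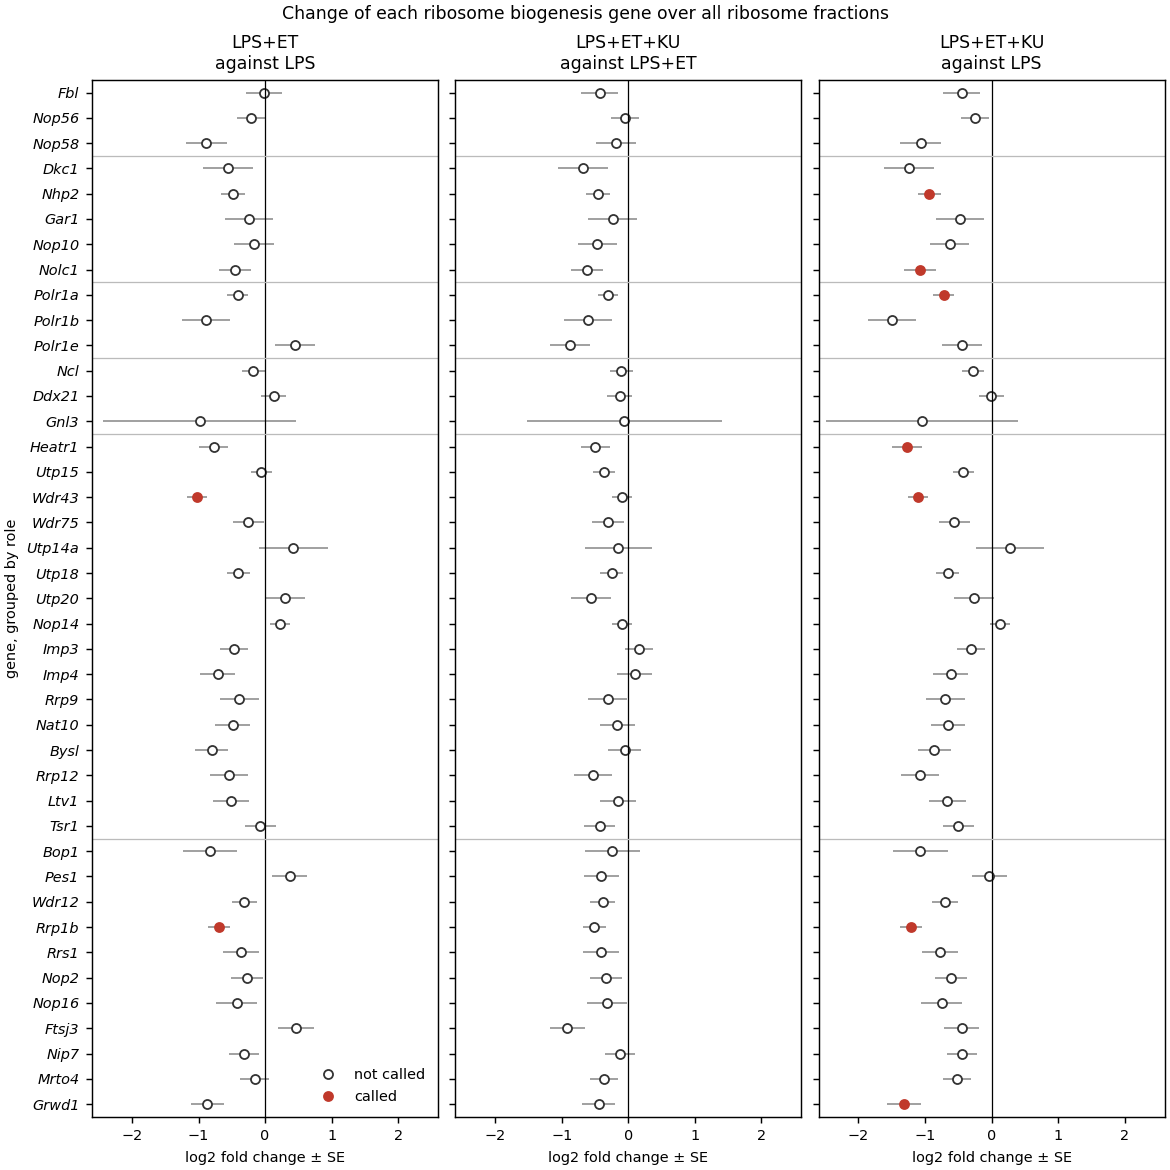
Log2 fold change of each ribosome biogenesis gene in the sum of all ribosome fractions for LPS+ET against LPS, LPS+ET+KU against LPS+ET and LPS+ET+KU against LPS, with bars of 1 standard error and filled points for called genes. Most points lie left of 0 in each comparison, and the called ones number 2, 0 and 7.

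Other genes of the same pathway had medians nearer to 0. A list of 116 further ribosome biogenesis genes, 112 of them tested, had a median of -0.22 in LPS+ET against LPS, with 2 called higher and 3 lower. Rrn3, the initiation factor that activates RNA polymerase I, rose (1.45 ± 0.27, edgeR adjusted p = 0.00152), as did Mak16, a factor of large subunit assembly (1.25 ± 0.29, edgeR adjusted p = 0.00751). Exosc3, a subunit of the RNA exosome, fell (-0.67), as did Rpf2, which helps to place a ribosomal RNA in the large subunit (-0.64), and Ruvbl2, an ATPase of snoRNP assembly (-0.62). With KU55933 beside etoposide alone none of the 112 was called by edgeR, with 12 at an unadjusted p under 0.05 and a median of -0.21. In LPS+ET+KU against LPS 11 were called lower and none higher, with a median of -0.41, and the largest falls were those of the large subunit factors Urb2 (-1.38), Mdn1 (-1.33) and Ppan (-1.29).

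The genes of the ribosomal proteins themselves had medians on both sides of 0. Of 79 cytosolic ribosomal protein genes, 74 were tested, and their medians were -0.16, 0.31 and 0.14 in the 3 comparisons, with 1 gene called higher in the first and none in the others. In the second comparison, 66 of the 74 lay above 0 in the summed fractions. Within each class most lay below 0 in that comparison, 57 of 70 tested in monosomes (median -0.18), 57 of 63 in light polysomes (-0.28) and 54 of 65 in heavy polysomes (-0.19), so the sign of the sum was not that of the classes. Of 75 mitochondrial ribosomal protein genes, 71 were tested, and their medians were -0.18, -0.16 and -0.24, with 1, 0 and 2 called lower. These counts and medians describe the lists, and no test set 1 list against another.

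**Figure D3:**
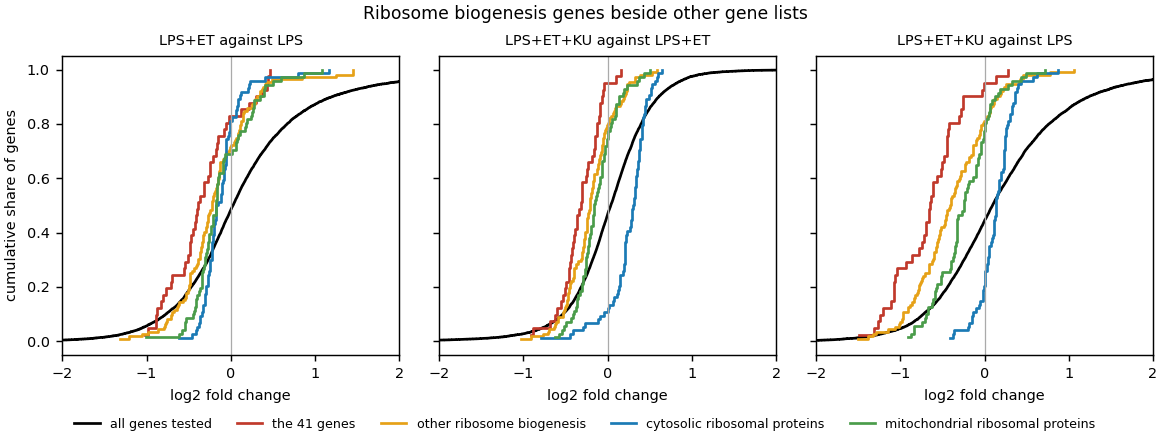
Cumulative share of genes by log2 fold change, for ribosome biogenesis genes, other ribosome biogenesis genes, cytosolic and mitochondrial ribosomal proteins and all tested genes in the 3 comparisons of summed fractions. The ribosome biogenesis genes have medians of -0.39, -0.32 and -0.65, and the cytosolic ribosomal proteins of -0.16, 0.31 and 0.14.

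Within each ribosome class the share of a gene was compared next. In the monosomes Dkc1 fell after etoposide, from 94.4, 81.1, 133.0 and 117.9 CPM in LPS to 36.2, 20.1, 50.3 and 40.1 CPM in LPS+ET. It stood at 33.04, 17.4, 54.9 and 42.5 CPM in LPS+ET+KU, so that every gradient with etoposide lay below every LPS gradient. The log2 fold change was -1.48 ± 0.35 (edgeR adjusted p = 0.00835), 2.79-fold lower. It was the only call among the 40 genes tested, against 9.52% of all genes in either direction. The call was lost without LPS of LUL15, LUL17 or LUL18, LPS+ET of LUL15, LUL16 or LUL18, or LPS+ET+KU of LUL18. The counted 3′ end of Dkc1 lay within the span of Mpp1, a gene on the opposite strand.

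In light polysomes Ddx21 rose, from 94.4, 85.8, 112.7 and 121.4 CPM in LPS to 145.2, 273.1, 194.5 and 231.4 CPM in LPS+ET, or on the log2 scale 1.04 ± 0.23 (edgeR adjusted p = 0.00524). It stood at 171.3, 154.7, 234.3 and 153.8 CPM in LPS+ET+KU, above all LPS gradients as well. Wdr43 fell there by 1.73-fold (-0.79 ± 0.16, edgeR adjusted p = 0.00272). The call of Ddx21 was lost without LPS of LUL15, LUL16 or LUL17 or LPS+ET of LUL16, LUL17 or LUL18, and that of Wdr43 without LPS+ET of LUL17. These were the 2 calls in light polysomes, where 10.6% of all genes were called in either direction.

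In heavy polysomes Wdr43 alone was called, against 9.69% of all genes. It stood at 270.6, 325.9, 275.9 and 281.3 CPM in LPS and at 139.5, 136.8, 118.3 and 110.5 CPM in LPS+ET, a 2.30-fold fall (-1.20 ± 0.19, edgeR adjusted p = 0.000464). In monosomes its values were 145.4 to 175.4 CPM in LPS and 113.9 to 168.6 CPM in LPS+ET, which overlapped. The log2 fold change in monosomes was -0.05 ± 0.17 and not called.

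Between LPS+ET+KU and LPS+ET no gene of the group was called by edgeR without the pool block in monosomes, light or heavy polysomes. Of all genes, 0.213%, 0.292% and 0.572% were called there. At an unadjusted p under 0.05 there were 2, 4 and 4 of the group, against 13.5%, 15.3% and 14.9% of all genes. With the pool as a block the calls of LPS+ET against LPS numbered 7 in monosomes, 11 in light and 4 in heavy polysomes, against 24.6%, 25% and 20.6% of all genes. The 7 in monosomes were Ddx21, higher, and Dkc1, Nop10, Imp4, Tsr1, Bop1 and Nop2, lower. In light polysomes Ddx21, Pes1 and Ftsj3 were higher and 8 others lower, and in heavy polysomes Nop58, Wdr43, Bysl and Grwd1 were lower.

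Most mRNAs of the group had a larger share of the heavy polysome libraries than of the monosome libraries. In LPS, 25 of the 41 were called higher in heavy polysomes than in monosomes and 4 lower, against 28.5% and 22.9% of all genes, and the median log2 ratio of shares was 0.75, against 0.11 over all genes. The largest were Heatr1 (2.35 ± 0.18), Nop16, a large subunit factor (1.80 ± 0.22), Rrp12, which acts in export of the small subunit (1.76 ± 0.22), and Nolc1 (1.601 ± 0.16). The smallest called were Grwd1 (0.71), Dkc1 (0.69), Wdr75, a partner of Wdr43 (0.61), and Mrto4, a placeholder for a stalk protein of the large subunit (0.60). The 4 lower were Nop56 (-1.25), Nop10 (-0.9996), Nhp2 (-0.74) and Imp3 (-0.72). With equal weight per fraction Nop56 kept its call (-0.84), and Nop10 (-0.42), Nhp2 (-0.0058) and Imp3 (-0.24) did not; Nhp2 and Imp3 also lost theirs without the gradient block. Of the genes named for their role, Ncl was at 1.26, Polr1a at 1.25, Pes1 at 1.16, Utp20 at 0.96, Bop1 at 0.76 and Polr1b at 0.75, all called. The call of Bop1 was lost in 9 of 12 fits that left out 1 gradient (edgeR adjusted p up to 0.0567) and that of Wdr75 in 8 of 12 (up to 0.0429), and both without the gradient block and with another scaling (RLE). With RLE the median of all genes moved to -0.01 and that of the group to 0.63, and with equal weight per fraction to 0.60 and 1.33.

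In LPS+ET 22 genes were called higher and 3 lower in heavy polysomes than in monosomes, against 26.9% and 22.7% of all genes, with a median of 0.69. In LPS+ET+KU 20 were higher and 6 lower, against 29% and 25.4%, with a median of 0.51. The calls there numbered 16 without LPS+ET+KU of LUL16, a fit in which the share of all genes was not taken. The cytosolic ribosomal proteins lay at the other end, with a median of -3.07 in LPS.

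Profiles over the single fractions separated the group further. In LPS the share of Heatr1 was highest in fraction 16, which held 35.5 ± 9.40% (SD, n = 4) of its scaled counts, and so were those of Utp20 (36.9 ± 10.1%), Polr1a (33.1 ± 7.41%) and Rrp12 (33.3 ± 13.9%). Ncl was highest in fraction 14, with 22.8 ± 2.07%, and Wdr43 and Dkc1 in fraction 13, with 16.5 ± 1.96% and 18.05 ± 2.94%. The short mRNAs peaked earlier, Nhp2 in fraction 10 with 17.99 ± 1.72% and Nop10 in fraction 9 with 27.1 ± 3.32%. Nop56 peaked in fraction 4, the first fraction counted, with 16.8 ± 7.95%, although it is of ordinary length. Its counted end lay within the span of Idh3b, a gene on the opposite strand.

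**Figure D4:**
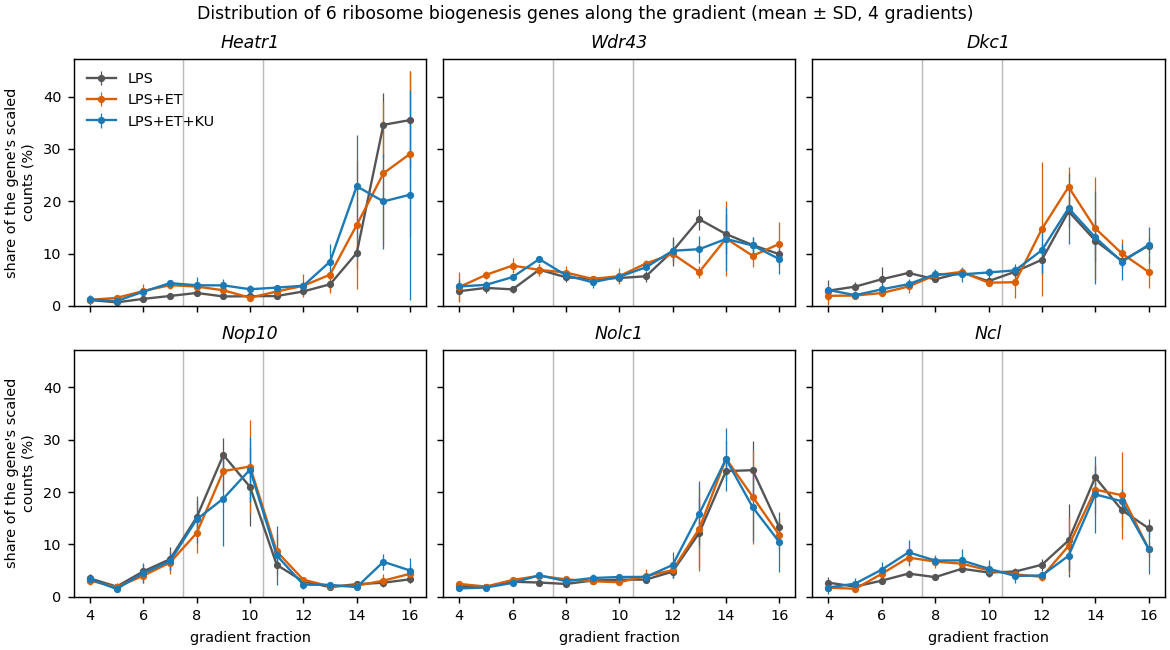
Mean percentage of a gene's scaled counts in each gradient fraction from 4 to 16 for selected ribosome biogenesis genes, with lines for the 3 treatments and error bars of 1 SD over 4 gradients. In LPS, Heatr1 is highest in fraction 16, Wdr43 in fraction 13 and Nop10 in fraction 9.

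Coding length was set beside the position on the gradient. The coding sequences ran from 192 bases for Nop10 to 8367 bases for Utp20, with a median of 1656. In the comparison of heavy with light polysomes in LPS, 29 genes were called higher and 2 lower, against 29.6% and 23.8% of all genes, with a median log2 ratio of 0.93. Heatr1 (2.09), Rrp12 (1.89), Nolc1 (1.88) and Ftsj3 (1.84) were the highest, and Nop10 (-2.62) and Nhp2 (-1.38) were the 2 called lower. Across the 41 genes this log2 ratio and log2 coding length had a Pearson r of 0.762 and a Spearman rho of 0.654, and across 10121 protein coding genes 0.507 and 0.466. For heavy polysomes against monosomes they were 0.460 and 0.284 in the group and 0.273 and 0.235 over all genes, and for light polysomes against monosomes -0.524 and -0.431 in the group and -0.259 and -0.303 over all genes. These are correlations across genes that share the same libraries, given as a description.

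Within bins of coding length the medians of the group for heavy against light polysomes in LPS lay above those of all genes. Under 750 bases the median log2 ratio of heavy to light was 0.15 in 7 genes of the group and -0.85 in all genes, and 5 of the 7 lay above that median. From 750 to 1499 bases it was 0.83 in 9 genes against 0.15, with 8 above. From 1500 to 2999 bases it was 0.96 in 19 genes against 0.46, with 16 above, and from 3000 bases 1.41 in 6 genes against 0.69, with all 6 above. In light polysomes against monosomes, 4 genes were called higher and 4 lower, against 12.9% and 11.7% of all genes, with Nop10 highest (1.62) and Nop56 lowest (-1.56). There the median of the group lay above that of all genes under 750 bases (0.65 against 0.53) and below it in the other 3 bins, at -0.04 against 0.02, -0.36 against -0.19 and -0.21 against -0.07. In LPS+ET+KU the median for heavy polysomes against monosomes under 750 bases was -0.26, against -0.24. For the change after etoposide the r with log2 coding length was 0.054 across the 41 genes.

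**Figure D5:**
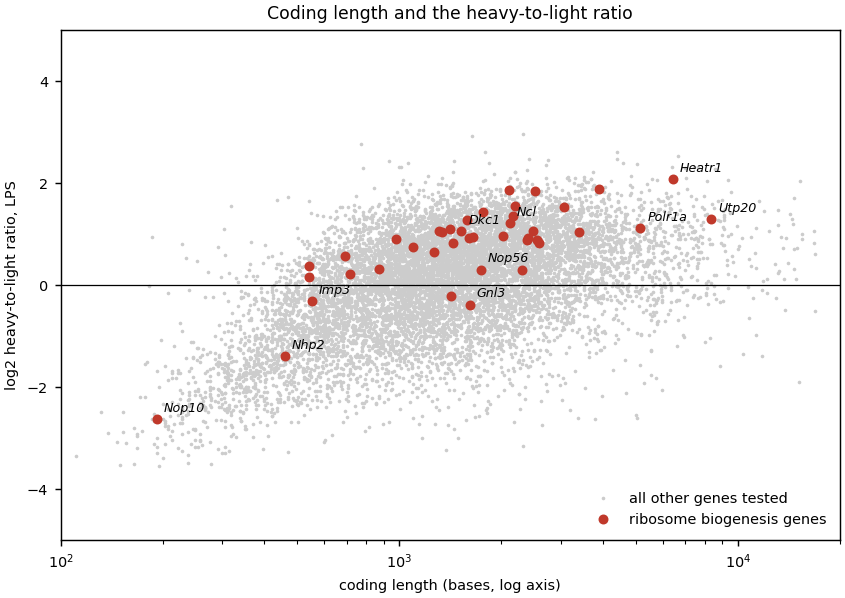
Log2 ratio of heavy to light polysomes in LPS against coding length in bases on a log axis, with grey points for all protein coding genes and coloured points for the ribosome biogenesis genes. The shortest gene of the group, Nop10, lies at -2.62 and Heatr1 at 2.09.

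The change after etoposide of the ratio between a gene's shares of heavy polysomes and of monosomes was tested next. The ratio fell for Wdr43 (-1.07 ± 0.18, edgeR adjusted p = 0.000139) and Heatr1 (-1.09 ± 0.25, edgeR adjusted p = 0.00334). It rose for Dkc1 (1.22 ± 0.23, edgeR adjusted p = 0.000392), and these were 3 of 41 against 5.1% of all genes in either direction. Ddx21 was at -0.997 and not called (edgeR adjusted p = 0.0145). A changed ratio does not show that mRNA moved from 1 class to the other. Mean CPM of Dkc1 fell in both classes, from 106.6 to 36.6 in monosomes and from 180.8 to 134.2 in heavy polysomes. That of Wdr43 went from 156.5 to 144.3 in monosomes and from 288.4 to 126.3 in heavy polysomes. For Heatr1 it went from 69.3 to 84.3 in monosomes and from 351.2 to 209.9 in heavy polysomes. The call of Heatr1 was lost in 5 of 12 fits that left out 1 gradient, and the others in none. With equal weight per fraction Wdr43 was not called (-0.75, limma adjusted p = 0.0166), and without the gradient block neither Dkc1 (1.12, edgeR adjusted p = 0.340) nor Heatr1 (-1.03, edgeR adjusted p = 0.160) was. No gene was called when the heavy share of each gradient was tested in place of the ratio.

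The heavy share of a gene, the percentage of its scaled counts found in fractions 11 to 16, was set beside these ratios. For Wdr43 it was 66.1, 68.5, 67.9 and 68.8% in LPS, 56.3, 58.2, 62.1 and 58.4% in LPS+ET and 63.4, 58.1, 62.6 and 63.8% in LPS+ET+KU. For Heatr1 it was 87.3 to 90.0% in LPS, 80.5 to 84.2% in LPS+ET and 73.7 to 84.1% in LPS+ET+KU. In both genes the LPS gradients lay above all others on this scale. For Ddx21 it was 69.0 to 76.7% in LPS, 43.0 to 65.0% in LPS+ET and 37.2 to 59.6% in LPS+ET+KU, also without overlap with LPS. From the counts as deposited, without scaling, the shares of LPS and LPS+ET overlapped in all 3 genes: Wdr43 was at 72.5 to 78.2% and 34.5 to 77.5%, Heatr1 at 80.5 to 91.1% and 64.2 to 85.6%, and Ddx21 at 70.1 to 77.4% and 27.8 to 70.6%. Dkc1 went the other way in LPS+ET but by less, from 61.9 to 70.2% in LPS to 69.9 to 76.3% in LPS+ET, and these ranges overlapped.

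Between LPS+ET+KU and LPS+ET no ratio was called, against 0.181% of all genes by edgeR, and 7 were at an unadjusted p under 0.05, against 12.9%. The smallest p was that of Fbl (-1.54, edgeR adjusted p = 0.0574), whose heavy share was 63.0 to 76.9% in LPS+ET and 31.1 to 53.2% in LPS+ET+KU. Fbl had only 3.44 to 9.70 CPM in any gradient, and its LPS values of 53.3 to 67.5% overlapped those of LPS+ET and lay above those of LPS+ET+KU, the nearest pair being 53.3 and 53.2%. From the counts as deposited, its share was 36.4 to 89.8% in LPS+ET and 36.9 to 56.4% in LPS+ET+KU, which overlapped. The lowest of these, in LPS+ET of LUL16, rested on 22 counts. The ratio of Dkc1 was at -0.82 and not called.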

How the data were processed

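Transcripts of splenic B cells were measured by 3′ end RNA sequencing of 13 sucrose gradient fractions of each of 12 gradients. The authors trimmed A tracts, collapsed PCR duplicates by random barcode bases, aligned the reads to GRCm38 (mm10) and deposited whole-number counts per gene and library, summed over its 3′ ends; the labels name TopHat2 2.0.12, HTSeq and DESeq2 1.6.3 without a role. Of 157 columns, 79 matched 1 sample by name and 78 a treatment and fraction only. A fraction 17 library of 777 counts was left out of all comparisons. The genes and gene lists were chosen with earlier results of these data known.

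Counts were summed per gradient or per ribosome class, normalized by TMM, filtered by filterByExpr and tested with edgeR 4.0.16 (quasi-likelihood F-test, R 4.3.3) over all 12 gradients with treatment as the term, and with the gradient as a block for comparisons between classes. P-values were two-sided, Benjamini-Hochberg adjusted over all genes tested and called under 0.01, the level the study used for polysome data. Scaled counts were divided by each library's total before shares over fractions were taken. Alternatives were a pool block, RLE scaling, DESeq2 1.42.0, no filter, equal weight per fraction with limma 3.58.1 on log2(CPM + 1), the 8 compared gradients alone, a threshold of 0.05, the heavy share tested with limma for genes with a mean of at least 100 counts per gradient, and each gradient left out. The edgeR fit of summed fractions without a pool block and that of class sums with the gradient block were tested on simulated data. The alternatives were not.

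Same-pool gradients deviated together (r = 0.305 to 0.799, 12 of 12 pairs over 0.1), and for different pools r was -0.628 to 0.284. Pools were taken from the column names, and by these values the pool pairs the gradients. The main tests between treatments left this pairing out, and the fits with the pool block took it in. The 4 gradients per treatment are biological replicates per the study's methods; the labels do not tie them to animals, and p-values measure the spread between these gradients. Named were the called genes of each comparison (the 4 largest and 4 smallest of each direction where over 8 were called), the 4 with the smallest p where under 4 were called, and 12 genes named for their role (Fbl, Nop56, Dkc1, Nop10, Polr1a, Polr1b, Ncl, Gnl3, Heatr1, Utp20, Bop1, Pes1); of the other ribosome biogenesis genes the 3 largest called changes in each direction. Nop58, Bysl, Utp14a, Ddx21, Imp4 and other genes outside this rule were named after their values were seen. Gene positions are from GENCODE M21. The sucrose range differs between the labels and the methods, and 1 label spells the inhibitor KU59933.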

Additional observations from a re-analysis of the deposited data

Results flagged for a closer look

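In 10 of 246 groups of 4 gradients, 1 gradient stood apart from the other 3 by Dixon's criterion, where chance gives about 5%. In CPM over all ribosome fractions, Nop14 was highest in LPS of LUL17 at 22.1 CPM (others 20.4 to 20.6). Rrs1 was lowest in LPS+ET of LUL16 at 17.4 CPM (others 28.9 to 30.7). In LPS+ET+KU of LUL16, Tsr1 was lowest at 25.1 CPM (others 56.1 to 60.5) and Nop16 at 24.2 CPM (others 46.8 to 49.4). Mrto4 was highest in LPS+ET+KU of LUL15 at 129.4 CPM (others 94.7 to 99.5).

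In the heavy share, Gar1 was highest in LPS of LUL17 at 65.3% (others 57.5 to 58.0%), and Rrp1b lowest in LPS of LUL18 at 57.5% (others 71.4 to 73.6%). Polr1a was lowest in LPS+ET of LUL17 at 77.0% (others 80.8 to 81.5%). In LPS+ET+KU, Utp14a was highest in LUL15 at 72.8% (others 45.3 to 48.6%) and Nop16 lowest in LUL16 at 59.7% (others 70.3 to 71.9%).

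The effect of etoposide differed between heavy polysomes and monosomes, by the test of the ratio, in Dkc1 (log2 difference 1.22), Heatr1 (-1.09) and Wdr43 (-1.07). The fraction 17 library of LPS, which no comparison used, held 3 counts from 3 of the genes among its 777 counts.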

How the results depend on the processing

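The values below are counts of genes called of the 41 unless said otherwise. The share of all genes called also moved with the setting. For LPS+ET against LPS 4.81% were called lower without the pool block and 12.8% with it. For LPS+ET+KU against LPS 4.42% were called lower in the main fit and 1.83% with equal weight per fraction. Where no share of all genes is given in this text, a count describes the 41 genes alone and cannot be set against all genes. With the pool as a replicate block the calls were 10 (without it 2) for LPS+ET against LPS, 2 (0) for LPS+ET+KU against LPS+ET and 18 (7) for LPS+ET+KU against LPS, and 7 (1), 11 (2) and 4 (1) for LPS+ET against LPS in monosomes, light and heavy polysomes; removing the gradient block gave 19 (29) for heavy polysomes against monosomes in LPS, 12 (26) in LPS+ET+KU, 3 (8) for light polysomes against monosomes and 1 (3) for the change of the ratio after etoposide. DESeq2 gave 4 for LPS+ET against LPS, 14 for LPS+ET+KU against LPS and 2 in heavy polysomes. For LPS+ET against LPS, no filter, equal weight per fraction and the 8 compared gradients each gave 1, and a threshold of 0.05 gave 5; for LPS+ET+KU against LPS equal weight gave 4 and 0.05 gave 14. The heavy share, scaled or as deposited, gave 0 for the ratio. Leaving out each gradient gave 1 to 3 for LPS+ET against LPS, 4 to 9 for LPS+ET+KU against LPS, 0 to 1 in monosomes, 0 to 3 in light and 1 to 2 in heavy polysomes, 16 to 29 for heavy polysomes against monosomes in LPS+ET+KU (16 without LPS+ET+KU of LUL16) and 4 to 10 for light polysomes against monosomes. The causes were not tested. Of the called values of named genes, 423 of 513 repeats kept the call and 90 lost it, with none reversed. These repeats cover the summed fractions, heavy polysomes against monosomes in LPS and the ratio after etoposide. Calls within a class and in the other comparisons between classes are not among them. Signs turned in 55 repeats of values that were not called. With the block Gnl3 was 0.025 for KU55933 beside etoposide alone. With equal weight Polr1a was 0.080, Ncl 0.10, Gnl3 0.023 and Bop1 0.076 there, Ncl 0.10, Utp20 0.37 and Pes1 0.15 in LPS+ET+KU against LPS, and Gnl3 -0.26 in heavy polysomes against monosomes in LPS (-0.047 with RLE). With 8 gradients Fbl was 0.013 after etoposide. For the ratio after etoposide, equal weight gave Nop56 -0.22, Utp20 0.034 and Pes1 -0.47, the scaled heavy share Nop56 -0.12 and Pes1 -0.54, and the share as deposited Polr1a -0.16 and Pes1 -0.25. For the ratio with KU55933, equal weight gave Nop56 0.47, Nop10 0.085 and Utp20 0.55, the scaled share Nop56 0.37, Nop10 0.20, Utp20 0.35 and Bop1 0.012, and the share as deposited Nop10 0.090. Leaving out gradients, the values of this comparison, LPS+ET+KU with LPS+ET, ranged over -0.50 to 0.0075 for Bop1, -1.07 to 0.55 for Gnl3, -0.15 to 0.014 for Ncl and -0.16 to 0.15 for Nop56, and its ratio over -1.06 to 0.0065 for Bop1, -0.20 to 0.10 for Heatr1, -0.41 to 0.17 for Nop10, -0.26 to 0.41 for Nop56 and -0.36 to 0.19 for Utp20. Fbl ranged over -0.19 to 0.19 after etoposide, Nop56 over -0.25 to 0.40 for its ratio, Pes1 over -0.18 to 0.11 in LPS+ET+KU against LPS and Gnl3 over -0.68 to 0.47 in heavy polysomes against monosomes in LPS. Depth limits the 10 genes under 3000 counts, Gnl3 and Fbl among them.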
